A study of Nicotiana tabacum with 2 samples.

Results

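Accessible regions whose point of highest signal stayed in place between callus grown on low and on high auxin were described here. There were 3993 such region pairs, out of 14900 one-to-one pairs on the 19 chromosomes in which the 0.1 mg/L region was under 800 bp wide. A pair joins a region of the 0.1 mg/L list with a region of the 0.5 mg/L list that overlaps it by at least 1 bp, where neither region has another partner. In the 3993 pairs the summits, the positions with the most stacked fragments, lay at most 20 bp apart. Members were thus chosen by measured values, namely the summit positions in both lists and the 0.1 mg/L width, and these are given as a description only. The other 10907 pairs, with summits more than 20 bp apart, served as the comparison. Of all regions in the series, 39523 were called at 0.1 mg/L, against 31830 at 0.5 mg/L.

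The regions came from ATAC-seq of tobacco callus, with 1 library from callus on 0.1 mg/L and 1 from callus on 0.5 mg/L naphthaleneacetic acid (NAA), a synthetic auxin. Each library pooled nuclei of about 80 explants, which in the study's procedure are cotyledon pieces kept on medium that also holds the cytokinin 6-benzyladenine. The labels give 2 weeks of culture for the 0.1 mg/L library and 3 weeks for the 0.5 mg/L library, whereas the study describes 1 culture time, so concentration and time cannot be told apart. The labels name Nicotiana tabacum, while the study names N. benthamiana and the regions are placed on its Niben261 assembly. The labels also mention formaldehyde fixation and sonication beside Tn5, and the part of these steps in region widths was not tested. Neither concentration was replicated, so sample-to-sample spread is unknown and no test was made. All intervals below are 95% counting intervals over regions.

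In ATAC-seq the transposase Tn5 cuts DNA where nucleosomes leave it exposed, so fragments pile up over accessible stretches. Open stretches of plant genomes are typically found at promoters and enhancers, where transcription factors displace nucleosomes. Auxin acts through Aux/IAA repressors and ARF transcription factors, which recruit chromatin-modifying complexes at their targets. A genome or gene annotation of the Niben261 assembly was not used here, so regions are given by position and without gene names or sequence.

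Summit distance itself showed a sharp core. The summits of 383 pairs lay on the same base. At 1 to 2 bp there were 199 pairs per base of signed shift, at 3 to 5 bp 142, and at 6 to 10 bp 76.6. The counts then levelled off, with 64.3 pairs per base at 11 to 15 bp, 55.6 at 16 to 20 bp and 49.1 at 21 to 25 bp. They stayed near that level to 60 bp (49.1 per base at 41 to 60 bp) and fell to 17.7 per base at 101 to 150 bp. The rule of 20 bp, which 26.8% of the 14900 pairs met (26.1 to 27.5%), thus joined a narrow core with part of a broad plateau. The median distance among the 3993 was 5 bp (quartiles 2 and 12 bp). The 0.5 mg/L summit lay to the right in 1791 of them and to the left in 1819, so the shifts had no prevailing direction.

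**Figure D1:**
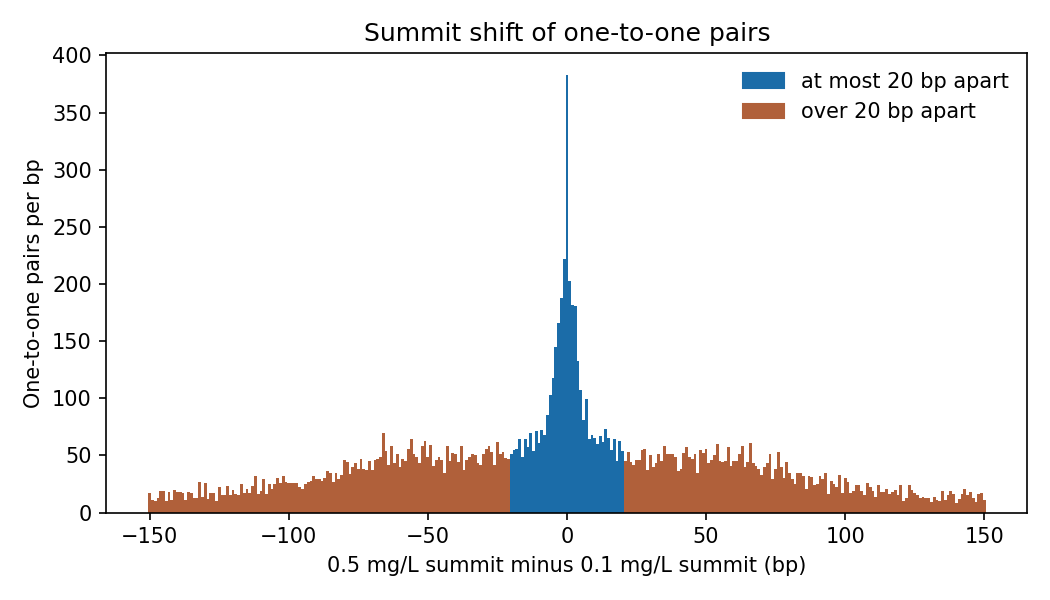
Number of one-to-one pairs at each signed summit shift in bp (0.5 mg/L position minus 0.1 mg/L position), with pairs at most 20 bp apart in blue and the others in brown. The bar at 0 holds 383 pairs. The counts are about 50 pairs per bp from 21 to 60 bp and fall farther out.

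Pairs on either side of the limit were alike. Just inside it, at 18 to 20 bp, 324 pairs had a median width of 345.5 bp at 0.1 mg/L, against 257.5 bp at 0.5 mg/L. Just outside it, at 21 to 23 bp, 290 pairs had medians of 339.5 bp and 247 bp. Their median −log10 q-values at 0.1 mg/L, the caller's strength of evidence after correction for multiple testing, were 6.81 and 6.14. The strongest member at 20 bp was on chromosome 16 from 142081047 to 142081492 (−log10 q-value 91.1 at 0.1 mg/L), and the strongest other pair at 21 bp was on the same chromosome from 50094221 to 50094479 (−log10 q-value 203). The width limit also cut through a continuum. There were 50 members of at least 750 bp, and 31 further pairs of at least 800 bp but under 850 bp met the summit rule but not the width rule.

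The strongest members were towers of fragments in both libraries, and some had almost the same outline in both. Among the members, the first by −log10 q-value at both concentrations lay on chromosome 1, from 70239509 to 70240216 at 0.1 mg/L, and its partner ran from 70239562 to 70240169. Both summits were at 70239986. Its summit pileup, the number of fragments stacked there, was 1034 at 0.1 mg/L against 743 at 0.5 mg/L. Its −log10 q-value was 925 at 0.1 mg/L against 761 at 0.5 mg/L. Thus 100 bp of its width were lost at 0.5 mg/L, in nearly equal parts of 53 bp on the left and 47 bp on the right.

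Among members only, second by the 0.1 mg/L value came a region on chromosome 13 from 9523488 to 9523799, with its summit at 9523648 in both lists and pileups of 776 at 0.1 mg/L against 549 at 0.5 mg/L. Its 0.5 mg/L partner started 4 bp farther right and ended 2 bp farther right. The third member was on chromosome 11 from 125305410 to 125305661, with both summits at 125305544 and pileups of 695 and 515. At 0.5 mg/L the second place among members was taken by a region on chromosome 3 that started at 74323968 in both lists and ended at 74324272 and 74324271. Its summits were 1 bp apart, and its pileups were 702 at 0.1 mg/L against 570 at 0.5 mg/L. In these 4 regions the pileup at 0.5 mg/L was between 0.707 and 0.812 times that at 0.1 mg/L, while the fold, the pileup relative to the local background of fragments, was between 1.33 and 1.35 times as high.

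Pairs with a summit pileup of at least 100 at 0.1 mg/L, a limit set after the values were seen, were mostly fixed. Of 42 such pairs, 35 belonged to the fixed-summit set (83.3%, 68.6 to 93.0%), on 14 chromosomes. In 20 of the 35 the summits were identical or 1 bp apart, and in 22 both edges lay within 10 bp of each other. Their median width was 312 bp at 0.1 mg/L against 310 bp at 0.5 mg/L, and the width ratio ran from 0.817 to 1.11. The pileup ratio (0.5 over 0.1 mg/L) had a median of 0.685 and ran from 0.362 to 0.812. The local background at these summits had a median of 12.9 fragments at 0.1 mg/L and 6.0 in the other list, whereas over all 3993 members the medians were 1.63 and 0.494. The tallest members thus also had the higher local background, and its part in their fold was not tested. The 7 other pairs of this height were much alike in width, with a median ratio of 1.00 (0.848 to 1.15), and 3 of them had both edges within 10 bp. Their median pileup ratio was 0.595, and their median local backgrounds were 6.06 and 2.22 fragments. Nearly equal widths and a high local background were thus also seen in tall pairs whose summits had moved.

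Most members were narrower at 0.5 mg/L. Their widths had a median of 349 bp at 0.1 mg/L (quartiles 270 and 460 bp), against 265 bp at 0.5 mg/L (quartiles 207 and 344 bp). Within pairs the 0.5 mg/L width was a median of 0.785 times the 0.1 mg/L width (0.774 to 0.797), with quartiles of 0.598 and 0.989. In 3045 pairs (76.3%, 74.9 to 77.6%) the 0.5 mg/L region was narrower, in 915 it was wider, and in 33 the widths were equal. Over all 14900 pairs 75.8% were narrower at 0.5 mg/L, so this share was near the background. The others had a median ratio of 0.771 (0.763 to 0.779) and median widths of 363 bp and 269 bp. Over all others the 0.1 mg/L median was thus slightly wider than in members. At summit distances up to 100 bp, however, it was 345 bp (342 to 350 bp), against 349 bp (342 to 354 bp) in members. Beyond 100 bp it was 395 bp (390 to 402 bp). The wider median thus came from pairs with distant summits. That contrast is partly set by the rule, as distant summits need room within the regions.

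The narrowest region of the 0.1 mg/L list was 207 bp and that of the 0.5 mg/L list 150 bp. Of the members, 983 (24.6%) had a 0.5 mg/L region under 207 bp, against 24.4% of the other pairs. When only regions of at least 207 bp were paired, the median ratio of fixed-summit pairs was 0.868 and that of other pairs 0.862. The narrowing was thus smaller when the lists shared a minimum width. The lowest local backgrounds also differed, at 0.747 fragments at 0.1 mg/L against 0.172 at 0.5 mg/L. Read totals are not in the lists, so depth was not compared directly. The part of depth in the width difference was not tested.

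**Figure D2:**
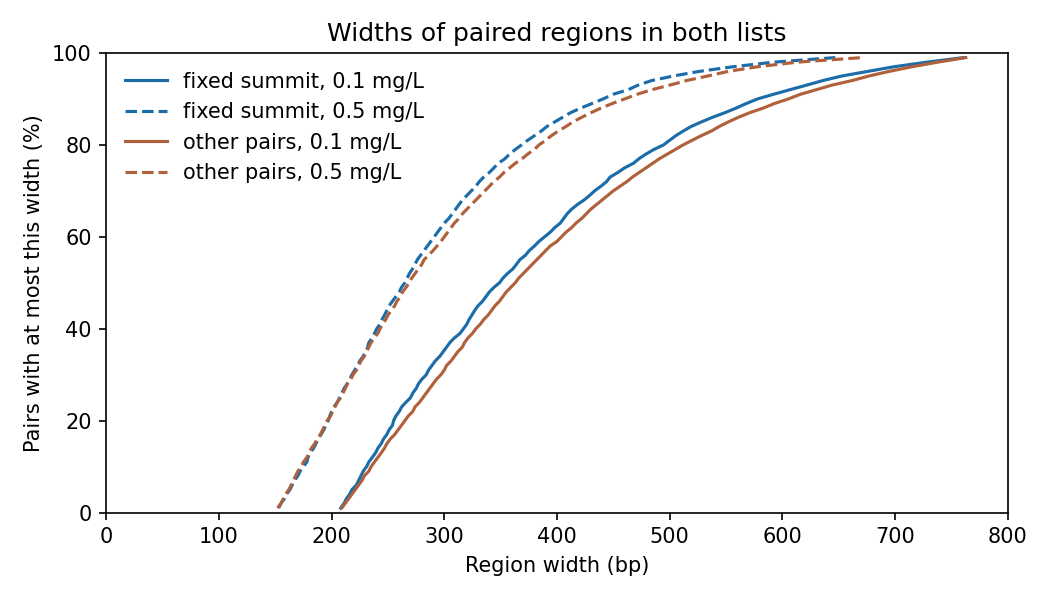
Cumulative share of pairs (%) by region width (bp), for fixed-summit pairs (blue) and other pairs (brown) in the 0.1 mg/L list (solid lines) or its 0.5 mg/L counterpart (dashed lines), drawn at whole percentiles. The 0.5 mg/L curves lie to the left, with medians of 265 and 269 bp against 349 and 363 bp at 0.1 mg/L.

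Width ratios varied widely behind the fixed summits. In 572 members (14.3%) the 0.5 mg/L region was at most 0.5 times as wide as its partner, and in 826 (20.7%) the widths agreed within 0.9 to 1.1 times. The same shares among the other pairs were 17.2% and 18.6%. The largest loss was on chromosome 9, where a region of 798 bp from 80947290 to 80948087 had a partner of 160 bp from 80947937 to 80948096. The left edge there had moved by 647 bp and the right edge by 9 bp, while the summits were 17 bp apart. The next was on chromosome 16, where a 796 bp region starting at 50305192 had a 174 bp partner starting at 50305257.

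The 0.5 mg/L region was the wider one in 915 members (22.9%), against 23.7% of all pairs. The largest gain was on chromosome 1, where 310 bp from 63074149 to 63074458 became 734 bp from 63074189 to 63074922, with summits 1 bp apart. It was a weak region, with a pileup of 8 in each list. On chromosome 10, 476 bp from 124254869 to 124255344 stood against 898 bp from 124254367 to 124255264, with pileups of 10 at 0.1 mg/L against 8 at 0.5 mg/L. In all of these extremes most of the change fell on a single side of the summit.

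The widest member was on chromosome 2 from 135457658 to 135458455, 798 bp at 0.1 mg/L against 468 bp at 0.5 mg/L, with a pileup of 18 in both lists. It tied in width with the region on chromosome 9. The narrowest was on chromosome 18 from 126731056 to 126731262, 207 bp at 0.1 mg/L against 218 bp at 0.5 mg/L.

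Edge shifts were measured as insets, positive where the 0.5 mg/L edge lay inside the 0.1 mg/L region. The median inset was 18 bp on the left (15 to 21 bp, quartiles −10 and 89 bp) and 20 bp on the right (16 to 23 bp, quartiles −8 and 94 bp). The sides were thus alike within counting error. The left edge lay inside in 62.3% of the members and outside in 32.8%, and the right edge lay inside in 63.5% and outside in 31.2%. All pairs together were close to this, with 61.4% inside and 34.4% outside on the left and 61.9% and 33.9% on the right. Other pairs had a median inset of 22 bp on each side. Their spread was larger, with quartiles of −21 and 110 bp on the left and −21 and 115 bp on the right.

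Edges also lay closer together in members, a contrast that the rule partly sets, since a region that moved as a whole, with its summit, falls among the others. The left edges lay within 20 bp of each other in 31.2% of the members (29.8 to 32.7%) and in 24.1% of the other pairs (23.3 to 24.9%). On the right the shares were 31.5% (30.1 to 33.0%) and 24.1%. Both edges were within 20 bp in 9.54% of the members (8.65 to 10.5%) and in 6.29% of the others (5.84 to 6.76%). Among the others the left share was 27.2% at summit distances up to 100 bp and 19.1% beyond. In 812 members (20.3%) a single edge stayed within 10 bp while the opposite edge moved by more than 50 bp, against 17.6% of the other pairs. Spearman's rho between left and right inset was −0.201 across the 3993 members and −0.367 across the 10907 others. This contrast too is partly set by the rule, as a region that moves whole has insets of opposite sign.

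The 0.5 mg/L region lay wholly inside its partner in 1758 members (44.0%, 42.5 to 45.6%), against 39.2% of all pairs and 37.4% of the others (36.5 to 38.3%). It enclosed its partner in 450 (11.3%, 10.3 to 12.3%), where all pairs had 10.0%. In the remaining 1801 members (45.1%) an edge lay inside and the opposite edge outside, and among the other pairs this share was 53.3% (52.3 to 54.2%). The 16 pairs with both edges on the same base count as inside and as enclosing. These contrasts partly follow from the rule as well. Among the others the inside share was 41.4% (40.2 to 42.6%) at summit distances up to 100 bp and 30.9% (29.5 to 32.3%) beyond. Just outside the limit, at 21 to 23 bp, it was 44.5% (38.7 to 50.4%). The inside share of members was thus not particular to fixed summits.

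Base by base, the edges did not shift smoothly. Left edges fell on the same base in 196 members (4.91%) and right edges in 213 (5.33%), where all pairs had 4.21% and 4.17%. Of the 7986 member edges, 409 thus had an inset of 0, while insets of 1 bp either way had a mean of 61.5 edges each. Smaller peaks stood at 2 bp (94.5 edges per direction), 5 bp (102.5 edges) and 10 bp (78 edges). The remaining insets up to 15 bp had a mean of 49 edges and at most 65. The other pairs showed the same series, with 840 edges at 0, 179 per direction at 2 bp, 201 at 5 bp and 156.5 at 10 bp, against a mean of 106 at the remaining sizes. The peaks were therefore not particular to fixed summits, although identical edges made up 5.12% of the member edges and 3.85% of the other edges. What sets these preferred steps was not tested.

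**Figure D3:**
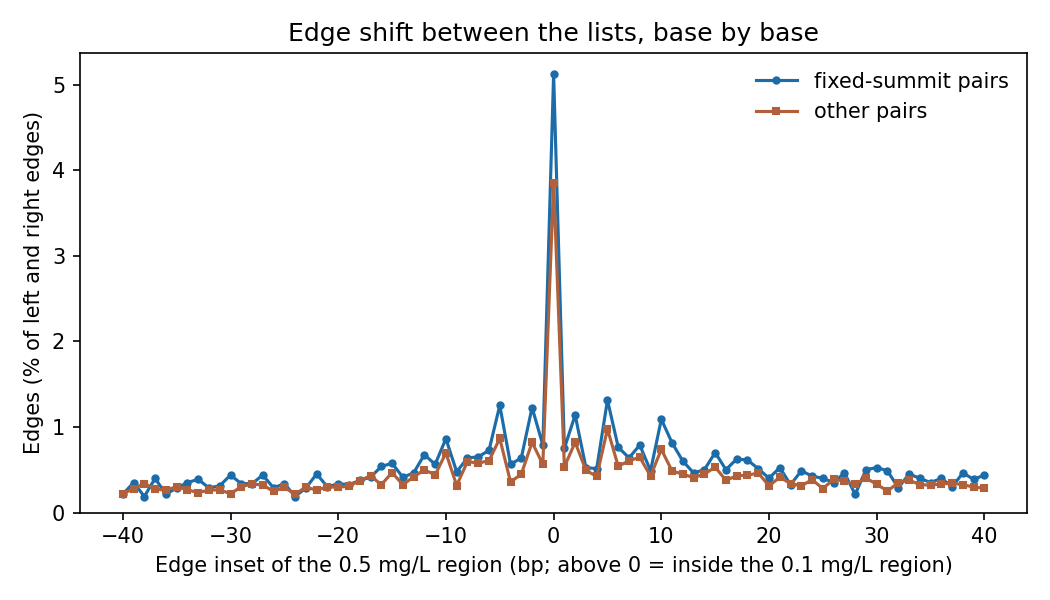
Share of all left and right edges (%) at each edge inset in bp, for fixed-summit pairs (blue) and other pairs (brown); positive insets lie inside the 0.1 mg/L region. Both curves peak at 0 (5.12% and 3.85% of edges), with smaller peaks at 2, 5 and 10 bp in either direction.

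The place of the summit within the region was not directly set by the rule, since a summit may stay while the edges move. The median summit lay at 0.474 of the width from the left edge at 0.1 mg/L (quartiles 0.315 and 0.641). At 0.5 mg/L it lay at 0.477 (quartiles 0.351 and 0.603). They fell in the middle 20% of the region in 30.3% of members at 0.1 mg/L (28.9 to 31.8%) and in 39.4% at 0.5 mg/L (37.9 to 40.9%). The outer parts, 20% of the width at either end, held 14.9% of the summits at 0.1 mg/L, against 9.49% at 0.5 mg/L. In the other pairs they held 20.4% and 16.4%. Among these others the outer shares were 16.5% and 12.4% at summit distances up to 100 bp, and 26.8% and 22.9% beyond. The contrast was thus larger with the distant pairs. The left outer part held more than the right one, with 9.39% against 5.48% in the 0.1 mg/L list and 6.24% against 3.26% in its counterpart. The same left excess was present in the other pairs, with 12.2% against 8.21% and 10.04% against 6.34%. Among the other pairs the middle part held 27.9% at 0.1 mg/L, against 32.3% at 0.5 mg/L. Just outside the limit, at 21 to 23 bp, it held 31.4% (26.1 to 37.1%) and 41.7% (36.0 to 47.6%). The middle shares of members were thus not particular to fixed summits. Spearman's rho between the relative summit positions of the lists was 0.410 across members and 0.0169 across other pairs. Part of that gap follows from the rule itself.

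Fixed-summit pairs were strong within their lists. The median −log10 q-value was 7.52 at 0.1 mg/L (quartiles 4.98 and 11.2), against 9.0 at 0.5 mg/L (quartiles 5.83 and 13.8). Ranked within the whole lists, the median percentile was 82.8 at 0.1 mg/L (82.1 to 83.5), against 76.4 at 0.5 mg/L (75.3 to 77.5). The other pairs stood at 71.4 (70.8 to 71.9) and 62.2 (61.3 to 63.0). Among these others the medians were 76.1 and 68.1 at summit distances up to 100 bp, and 63.3 and 52.3 beyond. At 0.1 mg/L the median was 75.2 (72.0 to 79.7) just outside the limit, at 21 to 23 bp. Just inside it, at 18 to 20 bp, it was 78.9 (75.6 to 83.2). Rank thus changed with summit distance, without a step at the limit beyond counting error. Of the members, 710 (17.8%, 16.6 to 19.0%) were in the strongest 10% of both lists, against 8.23% of the others (7.72 to 8.76%). Only 246 members (6.16%) were in the weaker 50% of both lists, against 14.6% of the others. Among the others at summit distances up to 100 bp, these shares were 11.2% in the strongest 10% and 10.6% in the weaker 50%. Beyond 100 bp they were 3.28% and 21.2%.

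The share of fixed summits rose with strength at every step. In the weakest 10% of pairs by 0.1 mg/L −log10 q-value, 206 of 1490 were fixed (13.8%, 12.1 to 15.7%), and in the strongest 10% 678 of 1490 (45.5%, 43.0 to 48.1%). Ranked by the 0.5 mg/L value the shares were 13.8% (12.1 to 15.7%) and 43.9% (41.4 to 46.5%). By summit pileup at 0.1 mg/L, the share was 15.6% under 10 fragments, 22.6% at 10 to 14, 30.8% at 15 to 19, 37.2% at 20 to 29 and 48.3% at 30 to 49 fragments. Identical summits followed the same order, from 0.843% of pairs under 10 fragments to 8.80% at 30 to 49 fragments. Differences by width were smaller. The share was 29.5% (27.6 to 31.4%) where the 0.1 mg/L region was under 250 bp and 22.6% (20.5 to 24.8%) where it was 600 bp or more. Narrow regions leave less room for distant summits, so this difference is partly set by the rule.

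**Figure D4:**
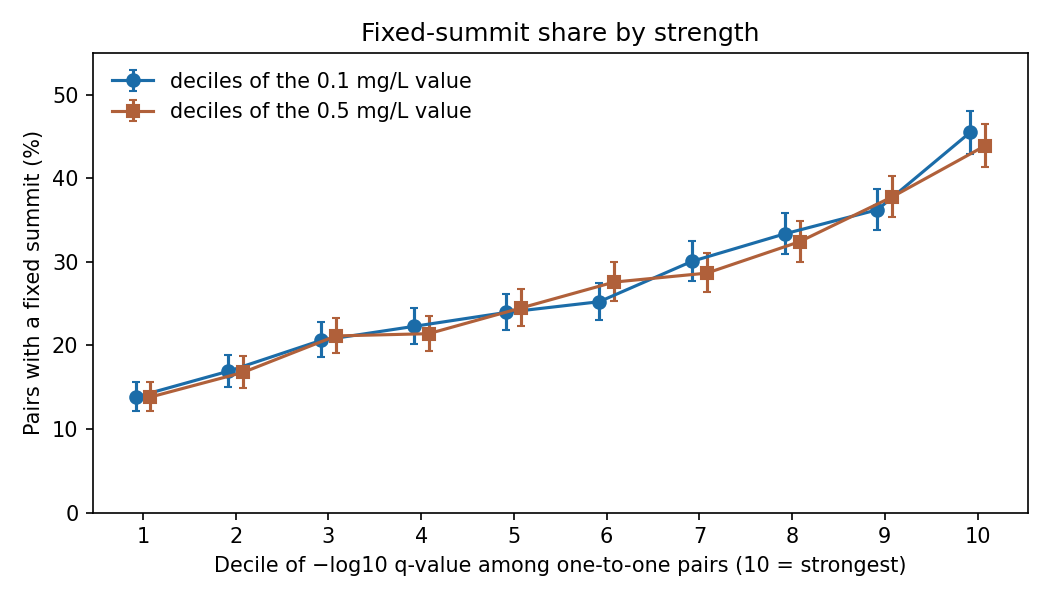
Share of one-to-one pairs with a fixed summit (%) in each group of 10% of the pairs, ordered by −log10 q-value in the 0.1 mg/L list (circles) or the 0.5 mg/L list (squares), with 95% counting intervals. The share rises from 13.8% in the weakest group to 45.5% and 43.9% in the strongest.

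Fragment number fell as summits lay farther apart. Pairs with identical summits had a median pileup of 18 fragments at 0.1 mg/L against 13 at 0.5 mg/L. At 16 to 20 bp the medians were 15 and 10, and at 101 to 150 bp 12 and 8. Over all members the medians were 16 fragments at 0.1 mg/L against 11 at 0.5 mg/L, and in the other pairs 13 against 9. The part of fragment number in the placing of summits was not tested.

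Fold and pileup moved in opposite directions between the lists. The median fold over local background was 6.25 at 0.1 mg/L (quartiles 5.15 and 7.63), against 7.97 at 0.5 mg/L (quartiles 6.20 and 10.2). In 3083 members (77.2%, 75.9 to 78.5%) the fold was higher at 0.5 mg/L, against 73.9% of all pairs. The pileup was higher at 0.5 mg/L in 602 members (15.1%, 14.0 to 16.2%), against 12.8% of all pairs. The median pileup ratio was 0.714 in members (0.706 to 0.727) and 0.682 in the other pairs (0.667 to 0.688). The part of depth in both ratios was not tested. In pairs just outside the limit, at 21 to 23 bp, the median pileup ratio was 0.727. Fold was higher at 0.5 mg/L in 78.3% of them (73.1 to 82.9%). Pileup was higher in 15.5% (11.5 to 20.2%). The pileup ratio of members and their shares with higher fold or pileup were thus not particular to fixed summits. Spearman's rho of fold between the lists was 0.509 across members and 0.448 across other pairs, and all these points share the same 2 libraries.

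Members were also set beside other pairs in the same group of 25% by −log10 q-value at 0.1 mg/L. These groups matched strength only coarsely, as the strongest ran from 9.15 to 925. Strength at 0.5 mg/L was not matched. Its median −log10 q-value was 9.0 over all members, against 6.63 in the other pairs. Within the weakest 25% of pairs by 0.1 mg/L −log10 q-value, the 0.5 mg/L region lay inside in 29.4% of members (25.9 to 33.2%) and in 25.2% of others (23.7 to 26.8%). Within the strongest 25% the shares were 52.3% (49.7 to 54.9%) and 48.7% (46.6 to 50.8%). In both, and in the groups between them, the intervals overlapped. The fold ratio was higher in members, at 1.40 (1.36 to 1.44) against 1.31 (1.29 to 1.33) in the weakest and 1.23 (1.20 to 1.26) against 1.19 (1.16 to 1.20) in the strongest. The width ratio was 0.779 (0.755 to 0.805) in members and 0.774 (0.761 to 0.787) in others in the weakest, and 0.808 (0.787 to 0.827) and 0.798 (0.788 to 0.812) in the strongest. In the groups between, the fold ratio was 1.33 (1.29 to 1.37) against 1.21 (1.19 to 1.23), and 1.27 (1.24 to 1.30) against 1.16 (1.14 to 1.18). The intervals of the width ratio thus overlapped in all 4 groups, and those of the fold ratio only in the strongest. The fold ratio has the 0.5 mg/L fold on top, so its contrast was not one at like strength in both lists.

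Fixed-summit pairs were spread over all chromosomes in proportion to the one-to-one pairs. The number ran from 171 on chromosome 12 to 282 on chromosome 3. The share was lowest on chromosome 12, where 171 of 695 pairs were fixed (24.6%, 21.4 to 28.0%), and highest on chromosome 3, where 282 of 985 were (28.6%, 25.8 to 31.6%). The intervals of all 19 chromosomes held the overall 26.8%. There were 1.36 members per Mb over all chromosomes, from 1.08 on chromosome 12 to 1.77 on chromosome 6. The median width ratio was between 0.756 and 0.820 on every chromosome, so narrowing was present on each of them. Each chromosome was also cut into 10 equal parts up to its last paired summit. The share then lay between 25.5% in the first part and 27.9% in the seventh, and all 10 intervals held 26.8%.

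**Figure D5:**
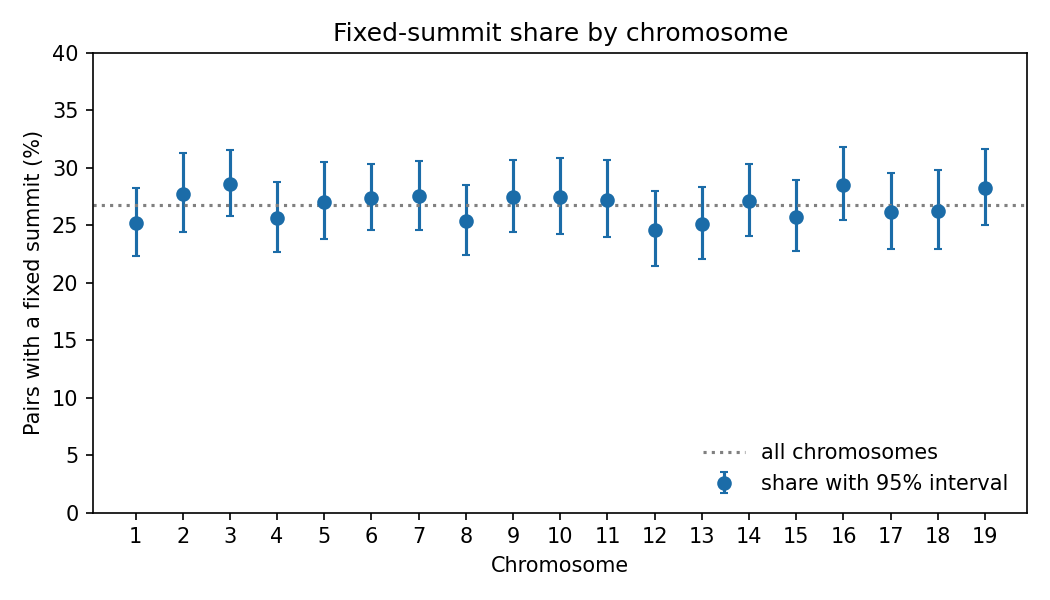
Share of one-to-one pairs with a fixed summit (%) on each chromosome, with 95% counting intervals and the share over all chromosomes as a dotted line (26.8%). The shares run from 24.6% on chromosome 12 to 28.6% on chromosome 3, and every interval crosses the line.

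Neighbouring members lay a median of 474 kb apart (quartiles 194 and 988 kb). The other pairs, which are more numerous, lay 165 kb apart. Of the 3974 gaps between neighbouring members, 80 (2.01%) were under 10 kb and 977 were over 1 Mb. The closest neighbours were on chromosome 15, with regions from 119072150 to 119072677 and from 119072968 to 119073421 and summits 681 bp apart at 0.1 mg/L. The most isolated member was on chromosome 11 from 17634444 to 17634781, with its nearest fellow 3917 kb away. Its summits were identical and its edges had moved by 10 and 9 bp.

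Fixed summits followed one another about as often as they followed moved summits. The one-to-one pair next along the chromosome was also fixed for 1040 of 3986 members (26.1%, 24.7 to 27.5%) and for 27.1% of the other pairs (26.2 to 27.9%). For neighbours under 10 kb apart the shares were 27.1% (22.0 to 32.5%) and 27.5% (24.4 to 30.7%). Of the runs of consecutive members, 2182 held a single member, and the longest 5 runs held 6 each. The nearest other accessible region of the 0.1 mg/L list lay a median of 19.3 kb from members and 19.2 kb from the other pairs. In the 0.5 mg/L list the distances were 23.2 and 23.2 kb. Called regions were thus about as dense around fixed as around moved summits.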

How the data were processed

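Per the labels and the study's methods, the authors trimmed reads with Trimmomatic 0.39, aligned them with BWA to the N. benthamiana genome and called regions per library with MACS2 2.2.7.1 at a q-value under 0.05. A control library, duplicate removal, shifting of Tn5 cuts and the mode of the caller are not given in the sources used here. The deposited score, a whole-number form of the −log10 q-value, was not used. The deposited fold is a ratio of summit pileup to local background with a pseudocount of 1. The deposited −log10 p-value and −log10 q-value refer to the summit.

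Pairs were formed with Python 3.11.15, pandas 2.3.3, numpy 2.4.6 and scipy 1.17.1. Coordinates count from 1. Summit pileup was the whole number that met both fold and −log10 p-value, and all regions could be solved. More than 1 whole number met both for 1 region at 0.1 mg/L and 7 at 0.5 mg/L, and the closest was taken. Read totals are not in the lists, so depth was not measured directly. The procedure was tested on simulated data, which did not reach the tallest or the lowest pileups reported here. Shares have Clopper-Pearson and medians order-statistic 95% intervals, which cover counting error only. With 1 library per concentration no test was made. Members, named regions and alternatives were chosen with earlier results of these data known. Named are the strongest members of each list, the strongest with identical summits, the strongest on either side of 20 bp, the largest gains and losses of width, the widest and narrowest, the closest and most isolated, and the chromosomes with extreme shares.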

Additional observations from a re-analysis of the deposited data

How the results depend on the processing

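Of 90 values recomputed under 9 alternatives, 32 stayed within the counting interval of the reported value and 58 moved beyond it. No paired analysis was possible because only 1 library was made per concentration. The fixed share was 18.8% with a limit of 10 bp, 46.3% with 50 bp, 29.3% at q under 0.001, 34.3% at q under 1e-05, 29.4% with overlap of 50% of both regions, 27.9% with 0.1 mg/L widths under 400 bp and 34.7% with pileups of at least 15. The share followed by a fixed pair, in the same order, was 18.01, 46.9, 28.5, 33.7, 29.1, 27.6 and 34.1%, near the fixed share each time.

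The median width ratio of fixed pairs was 0.807 at q under 1e-05, 0.850 with 50% overlap, 0.868 with the common minimum width, 0.869 under 400 bp and 0.807 with pileups of at least 15. That of other pairs was 0.796, 0.855, 0.862, 0.879 and 0.796 in these settings and 0.780 at q under 0.001. Other pairs thus had the higher ratio with 50% overlap and under 400 bp. The 0.5 mg/L region lay inside in 46.3, 42.0, 38.6, 34.6 and 48.3% of the fixed pairs, in the order of these 5 settings. For other pairs this was 35.3% beyond 50 bp, 39.4% at q under 0.001, 43.0% at q under 1e-05, 33.2% with the common minimum width, 27.3% under 400 bp and 44.2% with pileups of at least 15. The left and right insets were 12 and 11 bp with 50% overlap, 11 and 11 bp with the common minimum width, and 5 and 7 bp under 400 bp.

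The median percentile by q-value at 0.1 mg/L was 83.6 with 10 bp, 80.7 with 50 bp, 76.8 at q under 0.001, 69.9 at q under 1e-05, 84.5 with 50% overlap, 84.8 with the common minimum width, 80.8 under 400 bp and 91.7 with pileups of at least 15. At 0.5 mg/L it was 78.0, 73.8, 73.5, 72.5, 79.1, 73.4, 75.3 and 86.3. Percentiles under stricter q-values are ranks within shorter lists. Limits on distance, overlap, width and pileup change these values by construction, and other causes were not tested.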

Other observations

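Unplaced scaffolds, which the rule leaves out, held 298 one-to-one pairs with a 0.1 mg/L width under 800 bp. Of these 101 had summits at most 20 bp apart (33.9%, 28.5 to 39.6%), on 97 scaffolds. Their median widths were 378 bp at 0.1 mg/L against 265 bp at 0.5 mg/L, and the 0.5 mg/L region lay inside its partner in 62.4% (52.2 to 71.8%), against 44.0% on the chromosomes. Their median pileup at 0.1 mg/L was 19 fragments. Their median −log10 q-value at 0.1 mg/L was 11.8, against 7.52 in the members on the chromosomes. Among chromosome members with a 0.1 mg/L −log10 q-value from 9.15 upward, the inside share was 52.3% (49.7 to 54.9%). The inside share of the other scaffold pairs was not taken separately. Whether the higher share is particular to fixed summits on scaffolds was thus not tested.

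On the chromosomes, 109 pairs met the summit rule but were 800 bp or wider at 0.1 mg/L. Their median width ratio was 0.450, and their median −log10 q-value at 0.1 mg/L was 8.84.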
